A study of Mus musculus with 14 samples.

Results

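Marrow of BMAd-Pnpla2+/+ mice under caloric restriction (CR) was compared with marrow of BMAd-Pnpla2+/+ mice fed ad libitum (AL), across all genes. The members of the comparison were the 4 libraries that the labels give as BMAd-Pnpla2+/+ CR and the 4 given as BMAd-Pnpla2+/+ AL, 8 of the 14 RNAseq libraries of the series. They are called AL1 to AL4 and CR1 to CR4 here. The mice were males of strain C57BL6/SJL at 24 weeks of age. The CR mice, kept singly, received a diet restricted by 30% for 6 weeks. It was given once a day at about 6 pm and had another formula than the control diet fed before, whereas food was always present for the AL mice. The amount, the time of feeding and the formula thus changed together and cannot be told apart. How the AL mice were housed is not given in the sources used here, so housing may have differed too. Each library held RNA of marrow plugs flushed from the distal tibia of 2 pooled mice, so 4 libraries a group measured the spread between pools. The BMAd-Pnpla2+/+ mice are the controls of a line in which Pnpla2 is deleted in bone marrow adipocytes (BMAds) by a Cre that needs expression of both Osterix (Sp7) and Adipoq. The controls of both diets lacked the floxed Pnpla2 alleles but carried both insertions, Osterix-FLPo and the FLPo-dependent Adipoq-Cre. These lie within Sp7 and Adipoq, so the levels of both genes come from altered loci.

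The marrow of the distal tibia is rich in adipocytes of the constitutive kind, which store triacylglycerol beside blood-forming cells and bone. Stromal cells that express Cxcl12 and Lepr are their relatives and give blood progenitors and B-cell precursors the factors they depend on. Pnpla2 encodes adipose triglyceride lipase, which makes the first cut in stored triacylglycerol, and adipose tissue uses it to release fatty acids when food is short. CR is known to widen the fat depot of the marrow in mice while white adipose tissue shrinks. The study ascribes this to the regulated fat of proximal tibia and distal femur and calls constitutive fat mostly resistant to change. Its discussion also reports more marrow fat along the whole tibia under CR.

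The read pairs of a library that fell on 1 gene, counted without regard to strand, summed to between 19082056 and 21665553. Levels are given as CPM, the usual scale of counts divided by the total of their library, here adjusted by the TMM method. Differences are given as log2 fold changes of CR against AL with a standard error (SE). The quasi-likelihood test of edgeR, fitted on all 14 libraries, gave each of 17671 genes a p-value adjusted over all of them (padj), and a gene is said to rise or fall at padj under 0.05. Adipocyte, stromal, endothelial, bone and blood cell genes were read in every library, as marrow of this site holds. Of 8 chondrocyte genes 3 and of 10 skeletal muscle genes 7 passed the filter on low counts. By edgeR and by DESeq2 0 of them rose or fell, with 2 chondrocyte and 0 muscle genes at an unadjusted p under 0.05. The muscle genes summed to 38.5 CPM in AL2 against 11.3 to 20.05 CPM in the other 7 libraries, and the chondrocyte genes to 378 CPM in CR2 against 48.4 to 173 CPM in the rest. On the first principal component of the 500 most variable genes, which held 64.7% of the variance, the AL libraries lay at -7.93, -19.1, -17.4 and -20.2 and the CR libraries at 12.9, 24.4, 24.5 and 2.89. AL1 and CR4 were thus the libraries nearest to the other diet. CR2 and CR3 stood apart from CR1 and CR4 in their blood cell content: the 25 erythroid genes in the files summed to 12961 and 11849 CPM in CR2 and CR3, but to 37487 and 56855 CPM in CR1 and CR4 and to between 21404 and 41011 CPM with AL.

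**Figure D1:**
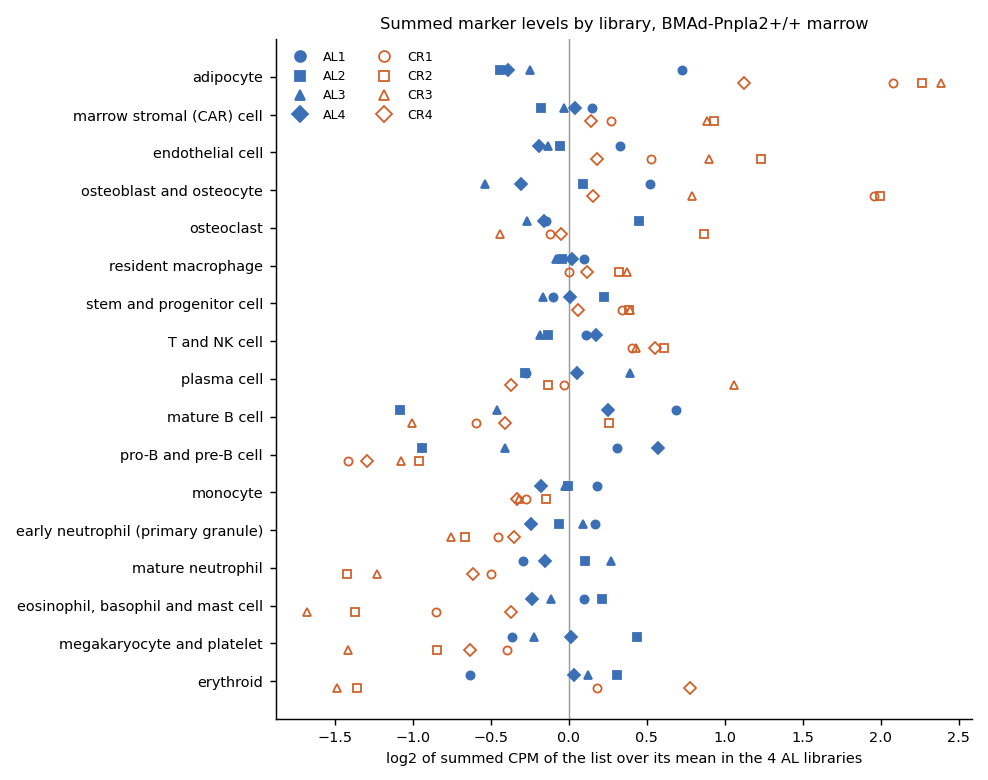
Summed CPM of the genes of each cell type list (rows) in each of the 8 libraries, as the log2 of its ratio to the mean of the 4 AL libraries; filled symbols are AL, open symbols CR, and the shape gives the replicate. The 4 CR libraries lie to the right of the 4 AL libraries for adipocyte genes and to their left for pro-B and pre-B cell genes, whereas for erythroid genes CR2 and CR3 lie to the left of all AL libraries and CR4 to the right.

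Of the 17671 genes, 4602 (26.0%) changed with CR. Of these, 2668 rose (15.1% of genes tested) and 1934 fell (10.9%). With the study's further criterion of an absolute log2 fold change over 1, 1296 genes were higher (7.33%) and 343 lower (1.94%) under CR. The levels of the CR libraries lay wholly above those of the AL libraries for 12.4% of genes and wholly below them for 10.4%. Over all genes the median log2 fold change was 0.0028. These counts rested in large part on CR2 and CR3. With both left out, 438 genes (2.44%) changed, 1.53% of genes upward and 0.909% downward. Of them 192 were past the criteria upward and 82 downward, including 261 of the 1639 found with all 8 libraries. With AL1 and CR4 left out instead, 6000 genes changed, and 1800 and 765 were past the criteria. For this reason the groups of genes below are also described by their counts in CR1 and CR4 alone against the 4 AL libraries. CR was then represented by 2 pools, and fewer calls can be made. In bulk RNA, a lower level of the genes of a cell type can mean fewer such cells or less RNA in each, and a higher level the reverse. CPM is relative to the library, so either can also mean that other cells gave more or less of the RNA. Those cannot be told apart.

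**Figure D2:**
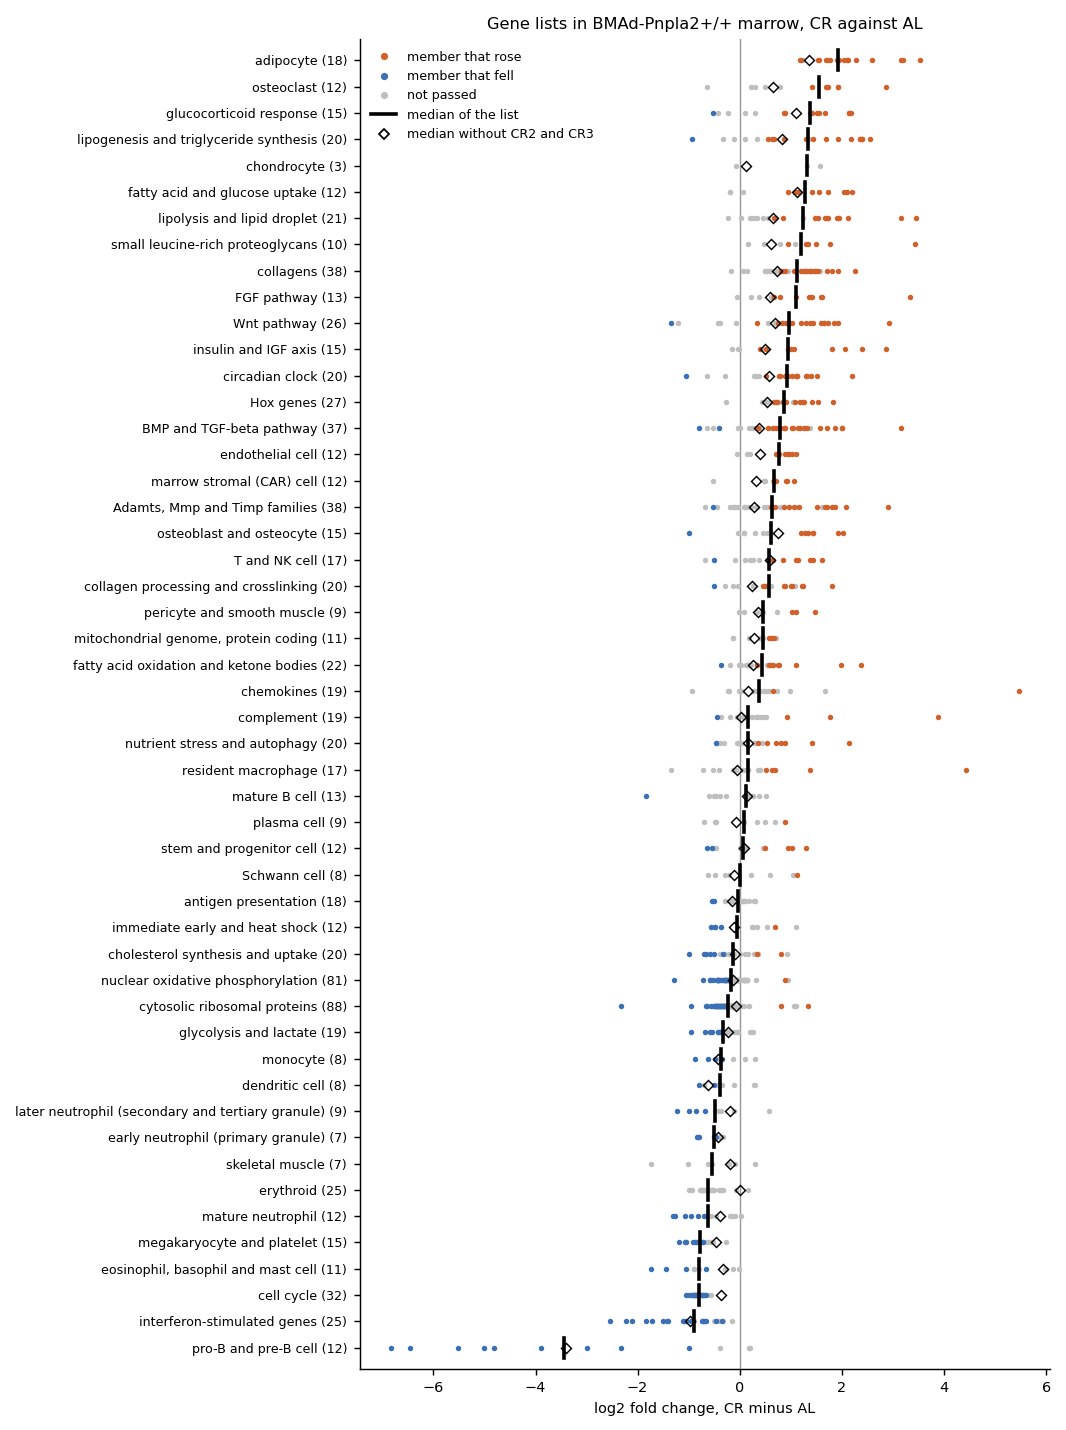
Log2 fold change (x axis, CR minus AL) of each tested gene of 50 lists (rows, with the number of genes tested); orange dots are genes that rose, blue dots genes that fell and grey dots genes that did not pass padj under 0.05, the black bar is the median of the list with all 8 libraries and the diamond the median without CR2 and CR3. Rag2 and Cd209b, at or under 3 counts in each library of a group, are drawn at the bound that 3 counts allow. The medians run from -3.44 for pro-B and pre-B cell genes to 1.93 for adipocyte genes, and the diamond lies near 0 for erythroid genes and near the bar for pro-B and pre-B cell, interferon-stimulated and T and NK cell genes.

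Pnpla2 itself was measured at 301, 174, 199 and 189.5 CPM with AL and 804, 991, 1015 and 502 CPM under CR. The groups did not overlap, and Pnpla2 rose with CR (log2 fold change 1.94, SE 0.23, padj = 5.95e-04), as it did in CR1 and CR4 alone (log2 fold change 1.60, padj = 0.0103). Among genes read at 50 counts or more in the mean whose groups lay apart, the 10 with the largest rises had varied roles. Cxcl13 is a chemokine that draws B cells, Madcam1 an adhesion molecule of vascular endothelium, Kcnc2 a potassium channel and Map7d2 a microtubule protein. The others were Masp1, a protease of the lectin pathway of complement, Mc2r, the receptor for adrenocorticotropic hormone, Slc13a4, a sulphate transporter, Retn, which encodes the adipokine resistin, Doc2b, a calcium sensor of vesicle fusion, and Fmod, a small proteoglycan of collagen fibrils. Each of the 10 was higher in every CR library than in every AL library, as the rule for naming them asked. Their log2 fold changes ran from 3.44 (SE 0.37, padj = 2.98e-04) for Fmod to 5.47 (SE 0.90, padj = 0.00258) for Cxcl13. Map7d2 was at 1.11, 0.369, 0.515 and 0.758 CPM with AL and 8.62, 10.8, 14.6 and 8.49 CPM under CR, and Mc2r at 0.772, 0.264, 0.206 and 0.284 CPM with AL and 4.97, 5.29, 8.81 and 3.799 CPM under CR. Both were low with AL and higher in every CR library, with CR3 the highest. Retn was at 8.11, 3.59, 3.86 and 3.41 CPM with AL and 69.4, 49.6, 70.1 and 31.3 CPM under CR, so that even AL1, its highest AL library, lay far under the lowest CR library. Masp1 (chromosome 16 of mm10, 23449417 to 23520815, reverse strand) overlaps the interferon-stimulated gene Rtp4 on the other strand, and with counts of its own strand its log2 fold change was 3.93 (padj = 0.00481). Every one of these 10 genes rose without CR2 and CR3 as well, except Doc2b (padj = 0.0587).

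Under the same minimum of 50 counts in the mean, the genes with the largest falls were Rag1, Igll1, Vpreb1, Dntt, Vpreb3, Fam129c, Myl4, Apol11a, 1700027J07Rik and 1810059H22Rik. The first 5 belong to B-cell precursors: Rag1 (chromosome 2 of mm10, 101638282 to 101649501, reverse strand) encodes a subunit of the recombinase that joins antibody gene segments, Igll1 and Vpreb1 the surrogate light chain, Dntt the enzyme that adds bases at the joints, and Vpreb3 a partner of the early receptor. Myl4 encodes a myosin light chain and Apol11a an apolipoprotein-like protein. Fam129c went from 121, 28.7, 93.4 and 125 CPM with AL to 10.2, 9.53, 9.30 and 10.2 CPM under CR, an even level over the CR libraries after a wide range over the AL libraries, with AL2 the lowest. For Myl4 the values were 30.1, 7.44, 18.2 and 37.7 CPM with AL and 2.37, 4.33, 3.82 and 2.37 CPM under CR, again with AL2 the lowest AL library. The log2 fold changes of the 10 ran from -6.83 (SE 0.61, padj = 8.97e-05) for Rag1 to -2.77 (SE 0.61, padj = 0.00836) for Apol11a, and all but Apol11a (padj = 0.0889) also fell in CR1 and CR4 alone.

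Adipocyte genes rose together. Of the 18 tested, 17 rose and 0 fell, with a median log2 fold change of 1.93, and their summed level went from between 1722 and 3873 CPM with AL to between 5089 and 12197 CPM under CR. Lep, which encodes the satiety hormone leptin, was at 6.95, 1.79, 1.60 and 2.99 CPM with AL and 23.7, 32.0, 51.2 and 16.4 CPM under CR (log2 fold change 3.20, SE 0.50, padj = 0.00207). Fabp4, a fatty acid carrier of adipocytes, was at 322, 193, 259 and 219 CPM with AL and 999, 1139, 1318 and 614 CPM under CR (log2 fold change 2.03, SE 0.29, padj = 0.00144). Both genes were higher in every CR library than in every AL library. Adipoq, which encodes adiponectin, rose by 2.27 (SE 0.52, padj = 0.00973), from 28.6, 23.5, 13.8 and 17.4 CPM to 65.8, 224, 82.7 and 31.0 CPM, and CR2 was far above the other CR libraries. Acvr1c, an activin receptor of fat cells, and Car3, a carbonic anhydrase abundant in adipocytes, rose by 3.17 (SE 0.47, padj = 0.00173) and 2.58 (SE 0.48, padj = 0.00429). Plin1, the coat protein of the lipid droplet (2.11, SE 0.46, padj = 0.00784), Cidec, which enlarges droplets (1.74, SE 0.46, padj = 0.0171), and Cfd, the complement factor adipsin (1.77, SE 0.44, padj = 0.0139), also rose, but their groups met where AL1 was the highest AL library and CR4 the lowest CR library. Pparg and Cebpa, the transcription factors that drive fat cell formation, rose less, by 1.18 (SE 0.25, padj = 0.00741) and 1.19 (SE 0.24, padj = 0.00551). The member that did not pass was Adrb3, the receptor through which noradrenaline starts lipolysis, read at under 1 CPM in 6 of the 8 libraries (log2 fold change 1.24, padj = 0.253). In CR1 and CR4 alone 7 of the 18 rose, among them Lep, Fabp4, Retn, Acvr1c and Pnpla2, and the median was 1.35. Cidec without AL3 missed the threshold (padj = 0.0516).

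**Figure D3:**
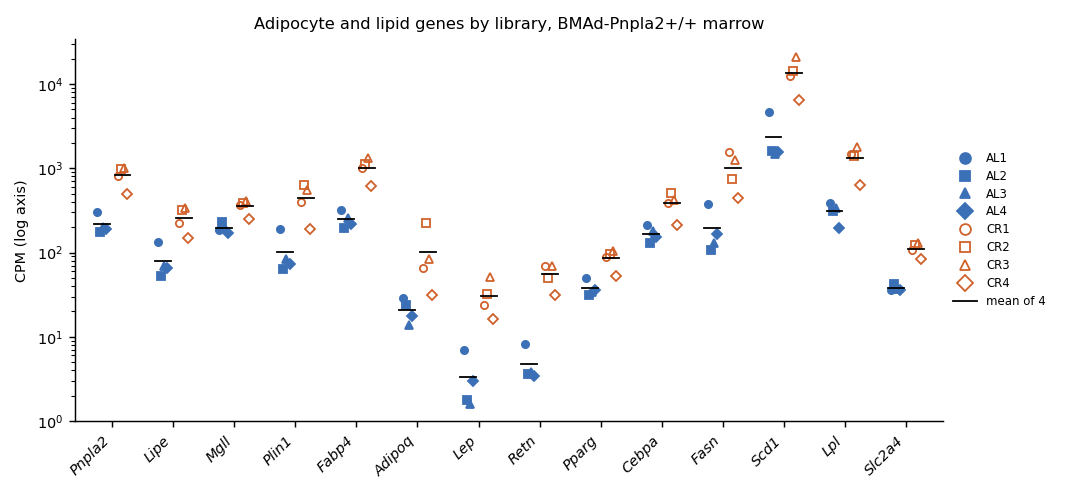
CPM on a log axis of 14 adipocyte and lipid genes in the 4 AL (filled) and 4 CR (open) libraries of BMAd-Pnpla2+/+ marrow; a bar marks the mean of 4 libraries. CR4 is the lowest CR library for each of these genes, and all CR points lie above all AL points for each but Plin1.

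Genes of triacylglycerol breakdown and genes of its synthesis rose at the same time. Of 21 genes of lipolysis and the lipid droplet, 12 rose and 0 fell (median 1.24), and of 20 genes of lipogenesis 14 rose and 1 fell (median 1.33). Pnpla2, Lipe, Plin1, Plin4, Cidec, Adrb3, Aqp7 and Acvr1c of the lipolysis list are also counted with adipocyte genes, so these lists are not separate evidence. After Pnpla2, the next lipases in the chain rose too: Lipe, hormone-sensitive lipase, was at 134, 52.3, 69.5 and 65.3 CPM with AL and 224, 319, 342 and 148 CPM under CR (log2 fold change 1.68, SE 0.33, padj = 0.00498). Mgll, which frees the last fatty acid, was at 186, 231, 195 and 172 CPM with AL and 363, 389.8, 406 and 249 CPM under CR (log2 fold change 0.84, SE 0.15, padj = 0.00292). Neither overlapped between the groups, and the rise of Mgll was the smaller. Pde3b, the phosphodiesterase through which insulin restrains lipolysis, rose by 1.48 (SE 0.25, padj = 0.00270), Aqp7, the glycerol channel, by 1.91 (SE 0.41, padj = 0.00786), and Plin4 of the droplet coat by 1.54 (SE 0.45, padj = 0.0263). Fitm2, which helps droplets to bud, rose by 1.67 (SE 0.26, padj = 0.00207), and Cidea, a droplet protein known from brown fat, by 3.46 (SE 0.71, padj = 0.00575) from under 1 CPM in all 4 AL libraries. On the side of synthesis, Fasn, fatty acid synthase, was at 372, 109, 131 and 164 CPM with AL and 1564, 738, 1238 and 445 CPM under CR (log2 fold change 2.36, SE 0.44, padj = 0.00438), and CR1, not CR2 or CR3, was its highest library. Scd1, which desaturates the product, was the most read gene of the list, at 4642, 1594, 1497 and 1583 CPM with AL and 12631, 14397, 21107 and 6518 CPM under CR (log2 fold change 2.55, SE 0.48, padj = 0.00446). Both were read at over 2 times their AL median in AL1, still under the lowest CR library. Acaca, which makes malonyl-CoA (1.68, padj = 0.00403), Me1, which supplies NADPH (2.39, padj = 0.00361), and Thrsp and Mlxipl, which promote lipogenesis (2.39, padj = 0.00173, and 2.36, padj = 0.00478), rose as well. So did Gpd1, which makes the glycerol backbone (2.18, padj = 0.00414), and Dgat2, which adds the last acyl chain (0.87, padj = 0.00520). The member that fell was Elovl6, which lengthens saturated fatty acids, at 23.9, 21.8, 16.1 and 21.0 CPM with AL and 11.5, 10.1, 12.1 and 9.29 CPM under CR (log2 fold change -0.94, SE 0.13, padj = 0.00112). All 4 CR libraries were under all AL libraries, and Elovl6 fell in CR1 and CR4 alone as well (log2 fold change -0.99, padj = 0.0145), where 6 genes of lipolysis and 6 of lipogenesis rose. Plin4 without AL2, AL3, AL4, CR2 or CR3 missed the threshold (padj between 0.0609 and 0.0757).

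Genes of the uptake of fuels rose too, and those of their oxidation moved less. Of 12 genes of fatty acid and glucose uptake 9 rose (median 1.28), and 6 of them did so in CR1 and CR4 alone. Lpl, Slc2a4 and Fabp4 of this list are also counted with adipocyte genes. Slc2a4, the insulin-responsive glucose transporter, was at 36.1, 42.5, 36.7 and 36.1 CPM with AL and 108, 121, 131 and 83.1 CPM under CR (log2 fold change 1.55, SE 0.13, padj = 5.12e-05). The groups lay far apart, and the call was kept in CR1 and CR4 alone (log2 fold change 1.34, padj = 7.23e-04). Lpl, which frees fatty acids from lipoproteins, rose by 2.10 (SE 0.32, padj = 0.00179), its anchor on endothelium Gpihbp1 by 1.72 (SE 0.29, padj = 0.00299). Cd36, which takes the fatty acids up, rose by 1.42 (SE 0.25, padj = 0.00327), Slc27a1, a fatty acid transporter, by 2.20 (SE 0.28, padj = 9.27e-04), and Acsl1, which activates them with coenzyme A, by 1.08 (SE 0.11, padj = 1.88e-04). Of 22 genes of fatty acid oxidation and ketone bodies 9 rose and 1 fell (median 0.43), and none passed in CR1 and CR4 alone. Pdk4, the kinase that spares glucose by closing pyruvate dehydrogenase, was at 3.14, 3.798, 2.42 and 1.85 CPM with AL and 7.30, 14.9, 25.7 and 10.3 CPM under CR (log2 fold change 2.38, SE 0.45, padj = 0.00446). Ppara, the nuclear receptor that senses fatty acids (1.99, SE 0.38, padj = 0.00414), its coactivator Ppargc1a (1.10, SE 0.38, padj = 0.0445), and the oxidation enzymes Acadm (0.56, SE 0.11, padj = 0.00520) and Hadh (0.77, SE 0.18, padj = 0.00948) rose too. Oxct1, which lets a cell burn ketone bodies, was the member that fell (-0.38, SE 0.11, padj = 0.0223). The number of fatty acid oxidation genes that rose was 5 without CR3. No longer past the threshold with 1 library left out were Ppargc1a without AL2, AL3, AL4, CR1, CR2 or CR3, and Oxct1 without AL2 (padj between 0.0624 and 0.140).

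Genes of the marrow stroma rose less than those of adipocytes. Of 12 genes of CAR cells, the stromal cells that abound in Cxcl12, 6 rose and 0 fell (median 0.68). Kitl, the growth factor of blood stem cells, was at 78.5, 85.4, 76.5 and 89.5 CPM with AL and 117, 183, 210.5 and 113 CPM under CR (log2 fold change 0.92, SE 0.20, padj = 0.00861), and Csf1, which macrophages and osteoclasts need, rose by 0.70 (SE 0.17, padj = 0.0116). Igfbp5, which binds IGFs, Pdgfra, a receptor of mesenchymal progenitors, and Vcam1, an adhesion molecule, rose by 1.05 (SE 0.27, padj = 0.0154), 0.90 (SE 0.25, padj = 0.0214) and 0.69 (SE 0.20, padj = 0.0217). Cxcl12 itself was at 4747, 3788, 4689 and 4779.9 CPM with AL and 5023, 8117, 7344 and 4456 CPM under CR (log2 fold change 0.47, padj = 0.121), Lepr had a log2 fold change of 0.68 (padj = 0.0501) and Ebf3, a transcription factor of these cells, of 0.48 (padj = 0.126). For all 3 CR4 lay within the range of the AL libraries, and without CR4 they passed (padj = 0.0449, 0.0183 and 0.0314). The number of CAR cell genes that rose was 2 without AL3 or CR3 and 11 without CR4, each left out singly. Without CR2 and CR3 it was 0. When single libraries were left out, calls were lost for Igfbp5 and Vcam1 without AL3 or CR3, and Pdgfra without AL3, CR2 or CR3 (padj between 0.0501 and 0.0728).

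Of 15 osteoblast and osteocyte genes 7 rose and 1 fell (median 0.61). Alpl, the phosphatase of mineralizing osteoblasts, was at 58.0, 34.0, 35.9 and 47.6 CPM with AL and 95.3, 193, 122 and 65.8 CPM under CR (log2 fold change 1.44, SE 0.34, padj = 0.0112). Dmp1, a matrix protein of osteocytes, was at 3.09, 4.06, 1.44 and 1.09 CPM with AL and 8.48, 16.7, 5.38 and 8.55 CPM under CR (log2 fold change 2.02, SE 0.42, padj = 0.00670). Both were higher in all CR libraries, with CR2 the highest. The osteoblast transcription factor Sp7 (1.19, SE 0.30, padj = 0.0150), the parathyroid hormone receptor Pth1r (1.32, SE 0.30, padj = 0.00979) and osteopontin, Spp1 (1.42, SE 0.35, padj = 0.0135), rose as well. Bone sialoprotein, Ibsp, did not pass (0.46, padj = 0.491), and Phospho1, which readies phosphate for mineral, fell from 3.57, 3.96, 4.02 and 3.27 CPM to 2.32, 2.23, 1.47 and 1.42 CPM (log2 fold change -0.99, SE 0.26, padj = 0.0170). Of 12 osteoclast genes 7 rose (median 1.55). Among them were Ctsk, the collagen-cutting protease (1.93, SE 0.65, padj = 0.0454), Acp5, tartrate-resistant phosphatase (1.42, SE 0.45, padj = 0.0345), the receptors Oscar (1.71, SE 0.59, padj = 0.0467) and Calcr (2.86, SE 0.95, padj = 0.0420), and the fusion proteins Dcstamp (1.69, SE 0.53, padj = 0.0341) and Ocstamp (1.92, SE 0.63, padj = 0.0403). Ctsk was at 61.0, 99.3, 27.6 and 15.5 CPM with AL and 63.5, 501, 87.3 and 120.4 CPM under CR, and CR2 stood above every other library while CR1 lay within the AL range. Of the osteoblast genes only Dmp1 rose without CR2 and CR3, and of the osteoclast genes 0. The number of osteoclast genes that rose was 0 without AL3, AL4 or CR2 and 3 without AL1 or CR3, each left out singly. It was also 0 in a fit of the 8 libraries alone, and without CR2 the median was 0.72. The genes that missed the threshold with 1 library left out were Phospho1 without CR3, Ctsk without AL1, AL3, AL4, CR2, CR3 or CR4, Acp5 without AL3, AL4 or CR2, Oscar and Calcr without AL1, AL3, AL4, CR2 or CR3, Dcstamp without AL1, AL3, AL4 or CR2, and Ocstamp without AL2, AL3, AL4 or CR2 (padj between 0.0502 and 0.234).

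Endothelial genes followed the stroma. Of 12, 9 rose and 0 fell (median 0.77). Kdr, the main receptor for vascular endothelial growth factor, was at 93.3, 72.4, 68.5 and 69.6 CPM with AL and 128, 178, 185 and 91.0 CPM under CR (log2 fold change 0.94, SE 0.20, padj = 0.00698). Plvap, of the diaphragms of fenestrated vessels (1.10, SE 0.27, padj = 0.0133), Flt4 (0.97, SE 0.23, padj = 0.0120) and Stab2 (0.88, SE 0.23, padj = 0.0171) of sinusoids, Emcn (1.01, SE 0.29, padj = 0.0244) and the junction protein Cdh5 (0.77, SE 0.23, padj = 0.0281) rose. Except for Plvap these genes met at AL1 and CR4. Of 9 genes of pericytes and smooth muscle 3 rose, which were Cspg4 (1.47, SE 0.38, padj = 0.0161), Notch3 (1.10, SE 0.27, padj = 0.0132) and Mcam (1.02, SE 0.33, padj = 0.0373). Of 8 Schwann cell genes S100b alone rose (1.11, SE 0.33, padj = 0.0275), beside 15.1% of all genes tested. These 4 were named after their values were seen. The number of endothelial genes that rose was 4 without CR3 and 5 without AL3, AL4 or CR2, each left out singly. With 1 library left out, the threshold was missed by Stab2 without CR3, Emcn without AL3, AL4, CR2 or CR3, Cdh5 and S100b without AL2, AL3, AL4, CR2 or CR3, Cspg4 without CR2, and Mcam without AL2, AL3, AL4, CR1, CR2 or CR3 (padj between 0.0515 and 0.107). No endothelial, pericyte or Schwann cell gene passed in CR1 and CR4 alone, where the medians were 0.40 and 0.35.

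Genes of the extracellular matrix rose across families. Of 38 collagen genes tested, 20 rose and 0 fell (median 1.12). Col1a1, the main chain of bone collagen, was at 726, 566, 269 and 136 CPM with AL and 3024, 2282, 609 and 488 CPM under CR (log2 fold change 1.92, SE 0.61, padj = 0.0352), a range of over 5 times within each group. Its partner Col1a2 (1.45, SE 0.40, padj = 0.0209), the fibril collagen Col3a1 (1.46, SE 0.41, padj = 0.0212), the basement membrane collagen Col4a1 (1.27, SE 0.28, padj = 0.00825) and the network collagen Col8a2 (2.26, SE 0.59, padj = 0.0168) rose too. Of 10 small leucine-rich proteoglycans, which coat and space collagen fibrils, 6 rose (median 1.19). Dcn, decorin, was at 88.7, 64.1, 62.1 and 45.6 CPM with AL and 144, 187, 207 and 102 CPM under CR (log2 fold change 1.30, SE 0.31, padj = 0.0116), and Podn (1.77, padj = 0.00348), Ogn (1.499, padj = 0.0158) and Prelp (1.34, padj = 0.00520) rose beside Fmod. Of 20 genes of collagen processing 9 rose and 1 fell (median 0.56). Lox, which crosslinks collagen, was at 91.6, 55.7, 44.8 and 40.7 CPM with AL and 175, 249.9, 283 and 102 CPM under CR (log2 fold change 1.80, SE 0.33, padj = 0.00393). The hydroxylases Plod2 (1.21, padj = 0.00867) and P4ha2 (1.24, padj = 0.00698) rose, whereas Colgalt1, which adds galactose, fell (-0.50, padj = 0.0204). Of 38 matrix proteases and inhibitors of the Adamts, Mmp and Timp families 14 rose and 1 fell (median 0.62). Timp4, an inhibitor expressed in fat, was at 8.21, 9.28, 5.71 and 8.06 CPM with AL and 47.2, 67.8, 82.4 and 35.9 CPM under CR (log2 fold change 2.90, SE 0.43, padj = 0.00166), higher in each CR library than in any AL library. Adamts18, Adamts12 and Mmp2, gelatinase A, rose by 2.08 (SE 0.47, padj = 0.00883), 1.85 (SE 0.34, padj = 0.00403) and 1.504 (SE 0.34, padj = 0.00971), and the member that fell was Mmp25, a protease of neutrophils (-0.52, SE 0.16, padj = 0.0319). In CR1 and CR4 alone 0 collagen genes, 1 proteoglycan gene, 0 processing genes and 3 protease or inhibitor genes rose. The number of collagen genes that rose was 10 without AL3 or CR2 and 13 without AL4, each left out singly. The number of collagen processing genes that rose was 5 without AL3 and 16 without CR4, each left out singly. Leaving out 1 library ended the calls of Col1a1 without AL2, AL3, AL4, CR1 or CR2, Col1a2 and Col3a1 without AL3, AL4 or CR2, Ogn without CR3, Colgalt1 without AL1, AL4 or CR3, and Mmp25 without AL2, AL3, CR2 or CR3 (padj between 0.0506 and 0.0982).

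Among genes of the Wnt, BMP and TGF-beta, and FGF signalling pathways, more rose than fell. Bulk RNA does not show which cells they came from. Tcf7 of the Wnt list is also counted with T and NK cells, and Acvr1c of the BMP and TGF-beta list with adipocytes. Of 26 genes of the Wnt pathway 18 rose and 1 fell (median 0.97), of 37 of the BMP and TGF-beta pathway 19 rose and 2 fell (median 0.79) and of 13 of the FGF pathway 9 rose (median 1.10). Among Wnt ligands, Wnt5a was at 3.19, 2.43, 2.57 and 2.42 CPM with AL and 7.15, 10.2, 10.6 and 5.06 CPM under CR (log2 fold change 1.64, SE 0.28, padj = 0.00300) and Wnt11 rose by 2.93 (SE 0.47, padj = 0.00202) from under 1 CPM. The receptors Fzd1 (1.37, SE 0.26, padj = 0.00432) and Fzd4 (1.85, SE 0.31, padj = 0.00258), the feedback target Axin2 (0.91, SE 0.25, padj = 0.0197) rose, as did Dkk3 (1.72, SE 0.34, padj = 0.00517) and Sfrp2 (1.93, SE 0.51, padj = 0.0181) of the families of secreted Wnt modulators. Sfrp4, another secreted modulator, was the member that fell, at 74.9, 66.1, 78.9 and 76.2 CPM with AL and 22.3, 42.7, 29.7 and 21.2 CPM under CR (log2 fold change -1.35, SE 0.22, padj = 0.00220), and fell in CR1 and CR4 alone (log2 fold change -1.77, padj = 0.00255). Ligands of the BMP and TGF-beta family parted: Gdf6 was at 1.16, 0.633, 1.24 and 1.28 CPM with AL and 3.70, 6.11, 4.36 and 3.11 CPM under CR (log2 fold change 2.00, SE 0.28, padj = 0.00121). Tgfb2 (1.87, SE 0.39, padj = 0.00612) and Bmp4 (1.02, SE 0.35, padj = 0.0466) rose. Tgfb1, the form that blood cells make in quantity, fell (-0.41, SE 0.11, padj = 0.0168), as did Inhba, a subunit of activin (-0.81, SE 0.23, padj = 0.0250). The secreted antagonists Chrd (1.99, SE 0.40, padj = 0.00541) and Fst (1.32, SE 0.29, padj = 0.00864) rose with the ligands. In the FGF pathway, Fgf2 was at 6.42, 4.33, 4.79 and 5.74 CPM with AL and 15.4, 15.7, 25.7 and 8.60 CPM under CR (log2 fold change 1.62, SE 0.29, padj = 0.00365). The receptors Fgfr1 (1.58, SE 0.29, padj = 0.00387) and Fgfr3 (1.39, SE 0.35, padj = 0.0142) rose. Klb, the coreceptor for the hormone FGF21, was at 2.70, 0.211, 0.360 and 0.664 CPM with AL and 10.5, 10.7, 14.4 and 4.48 CPM under CR (log2 fold change 3.33, SE 0.61, padj = 0.00400). Of 27 Hox genes, the positional transcription factors that stromal cells of the limb keep on, 14 rose and 0 fell (median 0.85), with Hoxa13 (1.82, SE 0.38, padj = 0.00635), Hoxa11 (1.52, SE 0.36, padj = 0.0110) and Hoxc11 (1.42, SE 0.35, padj = 0.0127) the furthest. Without CR2 and CR3, 4 Wnt genes (Wnt11, Fzd4, Tcf7 and Lgr4), 2 genes of the BMP and TGF-beta pathway (Acvr1c and Gdf6) and Fgf2 rose, Sfrp4 fell and 0 Hox genes passed. The number of Wnt pathway genes that rose was 10 without CR3 and 11 without AL3 or CR2, each left out singly. The number of BMP and TGF-beta pathway genes that rose was 11 without CR3 and 12 without CR2, each left out singly. The number of Hox genes that rose was 7 without CR2, 8 without CR3 and 9 without AL2 or AL3, each left out singly. No longer past the threshold with 1 library left out were Axin2 without AL3 or CR3, Sfrp2 without AL2, CR2 or CR3, Bmp4 without AL1, AL2, AL3, AL4, CR1, CR2 or CR3, and Inhba without AL2, AL3, CR2 or CR3 (padj between 0.0501 and 0.126).

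Genes of the early B lineage fell further than those of any other list. Of the 12 genes of pro-B and pre-B cells 9 fell and 0 rose, with a median log2 fold change of -3.44. Igll1 was at 47.1, 19.99, 31.8 and 60.1 CPM with AL and 0.426, 0.592, 0.445 and 0.317 CPM under CR (log2 fold change -6.45, SE 0.47, padj = 1.81e-05). Vpreb1 was at 23.7, 9.02, 12.4 and 27.2 CPM with AL and 0.474, 0.410, 0.356 and 0.317 CPM under CR (log2 fold change -5.51, SE 0.39, padj = 1.32e-05). Dntt was at 46.7, 30.2, 34.1 and 56.8 CPM with AL and 3.22, 3.42, 1.82 and 2.90 CPM under CR (log2 fold change -3.88, SE 0.26, padj = 1.01e-05). The CR libraries were alike and far under every AL library, and the AL libraries differed among themselves, with AL2 the lowest in each gene. Rag2, the partner of Rag1 in the recombinase, had 118, 43, 53 and 152 counts in AL1 to AL4 and 0, 2, 1 and 0 counts in CR1 to CR4, a ratio of 129 (95% exact interval of the counts 43.6 to 626, which covers counting error only). The surrogate light chain gene Vpreb2 fell by 5.01 on the log2 scale (padj = 5.95e-04), though Vpreb1 and Vpreb2 are close copies between which reads may be split, and Cplx2, a protein of vesicle release read in B-cell precursors, by 2.33 (padj = 0.00102). Il7r, Ebf1 and Lef1, which other cells of the marrow express as well, did not pass (0.17, padj = 0.536, 0.21, padj = 0.611 and -0.38, padj = 0.329). With Rag2 set to the bound that 3 counts allow, the median of the list was -3.44, and in CR1 and CR4 alone 8 of the 9 genes still fell, with a median of -3.40.

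**Figure D4:**
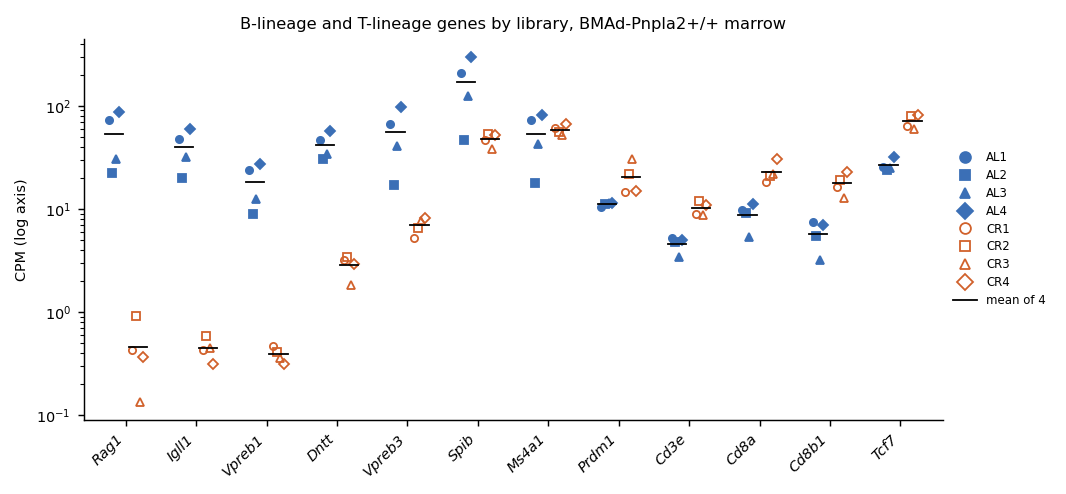
CPM on a log axis of 8 B-lineage genes, from precursor to plasma cell, and 4 T-cell genes in the 4 AL (filled) and 4 CR (open) libraries; a bar marks the mean of 4 libraries. Rag1 to Vpreb3 fall without overlap, Spib and Ms4a1 overlap, with AL2 the lowest AL library, and the 4 T-cell genes rise without overlap.

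Genes of later B cells did not share that fall. Of 13 mature B cell genes 1 fell and 12 did not pass (median 0.13). Ms4a1, which encodes CD20, was at 72.7, 17.9, 42.2 and 81.6 CPM with AL and 61.1, 55.5, 51.6 and 66.2 CPM under CR (log2 fold change 0.13, padj = 0.822). The CR libraries lay within the range of the AL libraries, and AL2 was the lowest of the 8 libraries. Without AL2, 5 of the 13 fell, and the sign of Ms4a1 turned (log2 fold change -0.16, padj = 0.716, and -0.014 without AL3). The gene that fell was Spib, a transcription factor of B cells and plasmacytoid dendritic cells, from 208, 46.3, 125 and 299 CPM to 46.8, 53.5, 38.2 and 51.5 CPM (log2 fold change -1.84, SE 0.41, padj = 0.00855). Of 9 plasma cell genes Prdm1, the transcription factor that makes plasma cells and also acts in T cells and macrophages, alone rose, at 10.5, 11.2, 11.3 and 11.3 CPM with AL and 14.7, 21.7, 30.2 and 14.8 CPM under CR (log2 fold change 0.88, SE 0.22, padj = 0.0135), a gene named after its value was seen. Of 208 immunoglobulin segments that could be tested, 2 rose and 0 fell, Ighv12-3 (1.90, SE 0.53, padj = 0.0214) and Ighv2-4 (1.55, SE 0.54, padj = 0.0484), also chosen after their values were seen. Segments of a family are near copies that share reads, and the calls rested on single libraries. Over all genes tested 15.1% rose and 10.9% fell, so with all libraries these lists did not move beyond the share of all genes. With CR2 and CR3 left out, 0 mature B and 0 plasma cell genes passed, nor did Ighv12-3 or Ighv2-4. When single libraries were left out, calls were lost for Ighv12-3 without AL2, AL3 or AL4, and Ighv2-4 without AL1, AL2, AL3, CR1, CR2 or CR3 (padj between 0.0513 and 0.124).

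T-cell genes rose. Of 17 genes of T and NK cells 7 rose and 1 fell (median 0.57), and 6 of the 7 rose in CR1 and CR4 alone, with a median of 0.59. Cd8b1 and Cd8a encode the CD8 coreceptor of cytotoxic T cells. Cd8b1 was at 7.39, 5.49, 3.19 and 7.02 CPM with AL and 16.2, 19.2, 12.6 and 22.8 CPM under CR (log2 fold change 1.61, SE 0.23, padj = 0.00135), and Cd8a at 9.70, 9.07, 5.35 and 11.1 CPM with AL and 18.2, 21.0, 21.6 and 30.1 CPM under CR (log2 fold change 1.36, SE 0.22, padj = 0.00208). Tcf7, a transcription factor of naive and memory T cells, was at 25.5, 23.7, 24.9 and 31.6 CPM with AL and 63.7, 79.8, 59.1 and 81.1 CPM under CR (log2 fold change 1.42, SE 0.14, padj = 1.78e-04). CR4, the CR library lowest in adipocyte genes, was the highest library for all 3. Cd3e (1.13, SE 0.16, padj = 0.00118) and Cd247 (1.11, SE 0.18, padj = 0.00217) of the T-cell receptor complex rose too, whereas Nkg7, a protein of cytotoxic granules, fell (-0.51, SE 0.13, padj = 0.0146). The calls of the genes named here held with any 1 library left out.

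Genes of granulocytes fell at each stage of maturation. Of 7 genes of early neutrophils, which form the primary granules, 5 fell (median -0.51). Of 9 genes of later neutrophils 4 fell (median -0.49), of 12 of mature neutrophils 6 fell (median -0.63), and no gene of these lists rose. Prtn3, proteinase 3 of primary granules, was at 716, 569, 686 and 468 CPM with AL and 375, 328, 281 and 386 CPM under CR (log2 fold change -0.83, SE 0.20, padj = 0.0112). Ltf, the iron-binding lactoferrin of secondary granules, was at 4470.2, 4975, 5164 and 3979 CPM with AL and 3033, 1621, 1780.2 and 2876 CPM under CR (log2 fold change -0.998, SE 0.21, padj = 0.00688). S100a9, which encodes a subunit of the alarmin calprotectin, was at 4798, 6319, 7086 and 4640.3 CPM with AL and 3719, 1916, 1986 and 3250.5 CPM under CR (log2 fold change -1.07, SE 0.25, padj = 0.0108). In all 3 the CR libraries were under the AL libraries, with CR2 or CR3 the lowest. Mpo (-0.51, SE 0.15, padj = 0.0241), Ctsg (-0.47, SE 0.15, padj = 0.0368) and Fcnb (-0.80, SE 0.23, padj = 0.0251) of granules and Cebpe, the transcription factor of late granules (-0.81, SE 0.18, padj = 0.00887), fell. So did Ly6g (-1.23, SE 0.25, padj = 0.00576), Camp (-0.85, SE 0.23, padj = 0.0189), Cd177 (-0.67, SE 0.19, padj = 0.0205), the receptors Cxcr2 (-0.82, SE 0.21, padj = 0.0140) and Csf3r (-0.70, SE 0.18, padj = 0.0157) and S100a8 (-0.96, SE 0.23, padj = 0.0113). Il1b, the inflammatory cytokine, was at 45.5, 37.2, 42.4 and 41.8 CPM with AL and 18.6, 18.3, 15.3 and 16.99 CPM under CR (log2 fold change -1.27, SE 0.23, padj = 0.00351), even over the CR libraries, and Hdc, which makes histamine, fell by 1.30 (SE 0.24, padj = 0.00410). In CR1 and CR4 alone Ly6g and Hdc fell (padj = 0.0219 and 0.0411), no other gene of these lists fell, and Chil3, a protein of later granules, rose. The number of early neutrophil genes that fell was 2 without CR2 or CR3 and 3 without AL1, AL2 or AL3, each left out singly. The number of later neutrophil genes that fell was 2 without AL3, CR2 or CR3 and 7 without CR4, each left out singly. Of 11 genes of eosinophils, basophils and mast cells 4 fell, and all 4 mark eosinophils: Epx (-1.45, SE 0.42, padj = 0.0255), Prg2 (-1.05, SE 0.35, padj = 0.0415) and Prg3 (-1.75, SE 0.41, padj = 0.0115) of their granules and the receptor Siglecf (-0.65, SE 0.17, padj = 0.0155). They were named after their values were seen, and 0 of the 11 passed in CR1 and CR4 alone. The number of eosinophil, basophil and mast cell genes that fell was 1 without CR3, 2 without AL1, AL2 or CR2 and 7 without CR4, each left out singly. The genes that missed the threshold with 1 library left out were Mpo without AL1, CR2 or CR3, Ctsg without AL1, AL2, AL3, CR2 or CR3, Fcnb without AL2, AL3, CR2 or CR3, Camp and Cd177 without AL3, CR2 or CR3, Csf3r and Siglecf without CR3, Epx without AL1, AL2, CR2 or CR3, and Prg2 without AL1, AL2, AL3, AL4, CR1, CR2 or CR3 (padj between 0.0506 and 0.115).

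Of 8 monocyte genes 4 fell and 0 rose (median -0.38). Ccr2, the receptor by which monocytes leave the marrow, was at 180.1, 211, 149 and 133 CPM with AL and 76.6, 91.3, 107 and 89.7 CPM under CR (log2 fold change -0.88, SE 0.17, padj = 0.00478), without overlap, and it fell in CR1 and CR4 alone (log2 fold change -1.01, padj = 0.0378). Ly6c2 (-0.63, SE 0.13, padj = 0.00528), Irf8, the transcription factor that sets the monocyte fate (-0.48, SE 0.11, padj = 0.0106), and Ms4a6c (-0.35, SE 0.093, padj = 0.0171) fell too. Of 8 dendritic cell genes Clec9a (-0.80, SE 0.24, padj = 0.0304) and Itgax (-0.51, SE 0.17, padj = 0.0372) fell, chosen after their values were seen, and 0 of the 8 passed in CR1 and CR4 alone. The list of resident macrophages was mixed: of 17 genes 5 rose, 0 fell and 12 did not pass (median 0.16). Log2 fold changes were positive for 11 and negative for 6 of them, down to -1.35, and 1 gene lay wholly below AL. Cd163, which takes up haemoglobin, was at 61.9, 31.8, 28.4 and 35.4 CPM with AL and 82.3, 129.7, 118 and 78.9 CPM under CR (log2 fold change 1.38, SE 0.32, padj = 0.0106). The receptor Mertk, which clears dying cells (0.62, SE 0.20, padj = 0.0360), the mannose receptor Mrc1 (0.52, SE 0.18, padj = 0.0470) and Vcam1, already given with the stroma, rose less. Cd209b, a lectin of some macrophages, had 3, 3, 0 and 0 counts with AL and 50, 141, 98 and 9 counts under CR, a ratio of 47.1 (95% exact interval of the counts 21.4 to 129), and it was the macrophage gene that rose in CR1 and CR4 alone. The number of resident macrophage genes that rose was 2 without AL3 or CR3 and 3 without AL2, AL4 or CR2, each left out singly. The number of dendritic cell genes that fell was 0 without AL4 or CR3 and 1 without AL2, AL3, CR1, CR2 or CR4, each left out singly. With 1 library left out, the threshold was missed by Clec9a without AL2, AL4, CR2 or CR3, Itgax without AL3, AL4, CR1, CR3 or CR4, Mertk without AL1, AL2, AL3, AL4, CR2 or CR3, and Mrc1 without AL2, AL3, AL4, CR1, CR2 or CR3 (padj between 0.0525 and 0.142).

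Erythroid genes did not pass: of 25, 0 rose and 0 fell by edgeR, with a median log2 fold change of -0.62. At an unadjusted p under 0.05 there were 2, by DESeq2 1 fell, and in CR1 and CR4 alone the median was 0.008. Hbb-bt, a beta globin with near copies, was at 504, 1249, 898 and 752 CPM with AL and 654, 247, 206 and 639 CPM under CR (log2 fold change -0.96, padj = 0.0838). Klf1, the erythroid transcription factor, was at 126, 295, 180.2 and 158 CPM with AL and 129, 56.7, 35.8 and 175 CPM under CR (log2 fold change -0.94, padj = 0.116). CR2 and CR3 were the lowest of the 8 libraries, and CR4 lay within the AL range for both genes. Without CR4, 13 of the 25 fell, without CR1 Hbb-bt fell (padj = 0.0387), and without AL1 and CR4 20 fell. Of 15 megakaryocyte and platelet genes 8 fell and 0 rose (median -0.79). Ppbp, a chemokine stored in platelets, was at 680.3, 1259, 832 and 998 CPM with AL and 581, 374, 287 and 544 CPM under CR (log2 fold change -1.08, SE 0.23, padj = 0.00784). Treml1 (-1.20, SE 0.25, padj = 0.00675), Pf4 (-0.72, SE 0.21, padj = 0.0263) and the receptors Gp9 (-0.92, SE 0.25, padj = 0.0203) and Gp6 (-1.04, SE 0.30, padj = 0.0250) of platelets fell as well. AL2 was the highest library of these genes: without it 2 of the 15 fell, without CR2 4, without CR3 3, without CR1 13, without AL1 13, and without CR2 and CR3 0. Leaving out 1 library ended the calls of Pf4 without AL2, AL4, CR2 or CR3, Gp9 without AL2, and Gp6 without AL2, CR2 or CR3 (padj between 0.0572 and 0.0782).

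Genes of blood stem and progenitor cells went both ways, with 4 of 12 higher and 2 lower (median 0.071). Kit, the receptor for the factor that Kitl encodes, was at 139, 111, 124 and 147 CPM with AL and 214, 282, 335 and 163 CPM under CR (log2 fold change 0.93, SE 0.20, padj = 0.00750). Hlf, a transcription factor of stem cells, was at 12.9, 14.6, 13.02 and 12.8 CPM with AL and 32.7, 38.1, 39.3 and 19.9 CPM under CR (log2 fold change 1.29, SE 0.19, padj = 0.00152). Both rose without overlap, and Hlf did so in CR1 and CR4 alone (log2 fold change 0.98, padj = 0.0264). Hlf is also counted with the circadian clock genes below. Flt3, a receptor of lymphoid and dendritic progenitors (0.49, SE 0.11, padj = 0.00973), and Fgd5, of stem cells and endothelium (1.02, SE 0.24, padj = 0.0109), rose. Cd34, of early progenitors and vessels (-0.55, SE 0.11, padj = 0.00620), and Meis1 (-0.63, SE 0.20, padj = 0.0307) fell. Of 32 cell cycle genes 20 fell and 0 rose (median -0.80). Bub1b, of the spindle checkpoint, was at 115, 136, 113 and 111 CPM with AL and 66.4, 46.7, 45.1 and 86.8 CPM under CR (log2 fold change -0.96, SE 0.19, padj = 0.00531). Top2a, which untangles chromosomes, was at 429, 608, 459 and 440.4 CPM with AL and 275, 147, 144 and 369 CPM under CR (log2 fold change -1.05, SE 0.29, padj = 0.0212). Mcm2 of the replicative helicase fell (-0.82, SE 0.24, padj = 0.0263), while Mki67 (log2 fold change -0.78, padj = 0.103) and Rrm2 (log2 fold change -0.83, padj = 0.0796) did not pass. The 32 genes summed to 5511, 3178, 2621 and 7325 CPM in CR1 to CR4 against 6935 to 10385 CPM with AL, the same low values of CR2 and CR3 as for the erythroid genes, whose part in this was not tested. The number of cell cycle genes that fell was 3 without AL2 or CR2, 4 without CR3, 10 without AL3 or AL4 and 32 without CR4, each left out singly. Without CR2 and CR3 it was 0. No longer past the threshold with 1 library left out were Meis1 without AL2, AL4, CR2 or CR3, and Top2a and Mcm2 without AL2, CR2 or CR3 (padj between 0.0530 and 0.0939).

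Most listed targets of glucocorticoids rose. Of 15 genes 10 rose and 1 fell, with a median log2 fold change of 1.38, and 9 of the 10 also rose in CR1 and CR4 alone, where the median was 1.09. Fkbp5, a chaperone partner that dampens the glucocorticoid receptor, was at 74.0, 115, 86.5 and 88.7 CPM with AL and 269, 259, 294 and 236 CPM under CR (log2 fold change 1.54, SE 0.15, padj = 1.51e-04). Tsc22d3, which encodes the anti-inflammatory protein GILZ, was at 99.9, 104, 105 and 131 CPM with AL and 236, 285, 364 and 258 CPM under CR (log2 fold change 1.38, SE 0.18, padj = 9.49e-04). Zbtb16, a zinc finger factor that the hormone induces in many tissues, was at 12.0, 14.6, 11.02 and 17.4 CPM with AL and 51.2, 73.2, 75.0 and 50.5 CPM under CR (log2 fold change 2.18, SE 0.27, padj = 7.35e-04). All 4 CR libraries of these genes were within 2 times of each other. Ddit4, an inhibitor of mTORC1 that hunger and the hormone induce, was at 26.6, 26.3, 22.5 and 23.0 CPM with AL and 81.9, 114, 153 and 86.9 CPM under CR (log2 fold change 2.14, SE 0.24, padj = 5.20e-04). Hif3a (2.15, SE 0.32, padj = 0.00160), Klf9 (1.41, SE 0.22, padj = 0.00183), Errfi1, a brake on EGF receptors (1.66, SE 0.27, padj = 0.00240), and the kinase Sgk1 (0.87, SE 0.22, padj = 0.0144) rose as well. The exception was Cebpd, from 156, 156, 183 and 138 CPM to 121, 117, 90.5 and 113 CPM (log2 fold change -0.52, SE 0.11, padj = 0.00576). The calls of the genes named here held when any 1 library was left out.

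**Figure D5:**
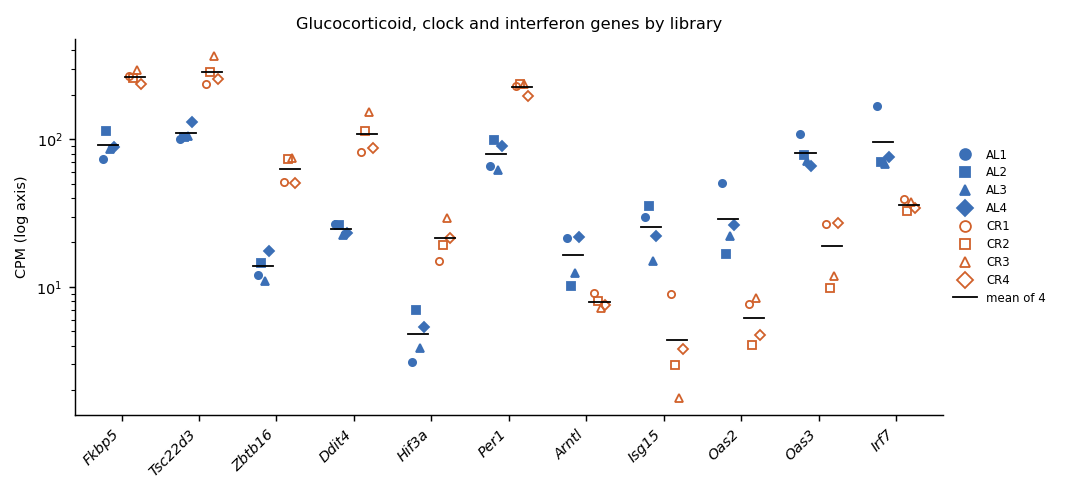
CPM on a log axis of 11 genes of the glucocorticoid response, the circadian clock and the interferon response in the 4 AL (filled) and 4 CR (open) libraries of BMAd-Pnpla2+/+ marrow; a bar marks the mean of 4 libraries. Fkbp5 to Per1 are higher and Arntl to Irf7 lower in every CR library than in every AL library.

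Of 20 genes of the circadian clock, 14 rose and 1 fell (median 0.92). Per1 is also counted with the glucocorticoid targets, and Hlf with the stem and progenitor cell genes. The gene that fell was Arntl, which encodes the activator BMAL1 at the head of the loop, at 21.4, 10.2, 12.5 and 21.9 CPM with AL and 9.10, 8.07, 7.16 and 7.49 CPM under CR (log2 fold change -1.05, SE 0.22, padj = 0.00640). Its repressors and outputs rose: Per1 was at 66.2, 99.5, 62.3 and 89.4 CPM with AL and 229.5, 238, 237 and 198 CPM under CR (log2 fold change 1.51, SE 0.18, padj = 5.71e-04). Per2 was at 32.3, 31.8, 32.7 and 33.1 CPM with AL and 55.2, 77.7, 70.5 and 47.0 CPM under CR (log2 fold change 0.95, SE 0.20, padj = 0.00607). Per1 rose without overlap, and Per2 was within 31.8 to 33.1 CPM in the AL libraries. Nr1d1, the repressor of Arntl (1.31, SE 0.38, padj = 0.0249), Dbp (1.02, SE 0.30, padj = 0.0263), Tef (1.11, SE 0.21, padj = 0.00478), Ciart (1.10, SE 0.20, padj = 0.00377) and Rora (1.39, SE 0.24, padj = 0.00323) rose too. The hour of tissue collection is not given in the sources used here. In CR1 and CR4 alone Per1, Rora and Hlf were among the genes that rose, and Arntl did not pass (log2 fold change -0.99, padj = 0.0900). When single libraries were left out, calls were lost for Nr1d1 and Dbp without AL2, AL3, AL4, CR2 or CR3 (padj between 0.0537 and 0.0791).

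Promoters of these genes were read for the letters that the factors are known to bind, from 250 bases before to 50 bases after the start of each RefSeq gene (GRCm38.p6), on both strands. The E-box CACGTG, the site of BMAL1 and its partner, which reads alike on both strands, was found in 5 of the 17 clock genes with a promoter in the table and in 8.09% of all 27025 genes. The half-sites AGAACA and TGTTC of the glucocorticoid receptor, in this order and 3 bases apart, were found in 1 of 12 genes of its list with a promoter, Sgk1, on both strands and overlapping itself, and in 0.0518% of all genes. Windows of 30 bases are shown for genes that rose, with the motif in capitals, to let the sites be seen beside the values above. A match is a description of the letters alone.
Per1, chr11:69098771-69098800, forward strand: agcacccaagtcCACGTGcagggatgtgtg
Tef, chr15:81802534-81802563, forward strand: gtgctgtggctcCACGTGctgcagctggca
Ciart, chr3:95882327-95882356, reverse strand: tgcatctagagtCACGTGttgccggtaagc
Sgk1, chr10:21993693-21993722, forward strand: atgcggaaAGAACAGAATGTTCTcggagat

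Genes of nutrient stress and autophagy rose in part, with 7 of 20 higher and 1 lower (median 0.16). Beside Ddit4, Bnip3, which marks mitochondria for removal, was at 9.17, 7.70, 7.77 and 8.58 CPM with AL and 21.4, 23.7, 32.1 and 10.8 CPM under CR (log2 fold change 1.41, SE 0.27, padj = 0.00485). Txnip, which limits glucose uptake, was at 336, 349, 361 and 357 CPM with AL and 509.8, 708, 859.7 and 528 CPM under CR (log2 fold change 0.89, SE 0.17, padj = 0.00478). Trib3 rose by 0.80 (SE 0.21, padj = 0.0152), whereas Atf4, the transcription factor of the amino acid response, fell (-0.47, SE 0.11, padj = 0.00870). Of 15 genes of the insulin and IGF axis 10 rose and 0 fell (median 0.93). Igfbp3, the main carrier of IGFs, was at 14.9, 7.39, 6.07 and 4.98 CPM with AL and 45.9, 57.2, 95.3 and 42.9 CPM under CR (log2 fold change 2.86, SE 0.45, padj = 0.00210). Ghr, the growth hormone receptor, was at 95.9, 40.0, 44.6 and 47.8 CPM with AL and 279, 322, 435 and 165 CPM under CR (log2 fold change 2.39, SE 0.36, padj = 0.00179). Both also rose in CR1 and CR4 alone (padj = 0.0379 and 0.0364), the 2 genes of the list that did, and of the nutrient stress and autophagy genes only Ddit4 rose there. Igf1 (0.94, SE 0.27, padj = 0.0231), Igf2 (2.06, SE 0.54, padj = 0.0160), the insulin receptor Insr (0.51, SE 0.13, padj = 0.0154) and its substrate Irs1 (1.79, SE 0.31, padj = 0.00310) rose as well. The number of nutrient stress and autophagy genes that rose was 3 without CR3 and 4 without AL3 or AL4, each left out singly. The number of insulin and IGF genes that rose was 6 without AL3. The genes that missed the threshold with 1 library left out were Trib3 without CR3, Igf1 without AL2, AL3 or CR3, Igf2 without CR2, and Insr without AL3 (padj between 0.0502 and 0.0760).

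Interferon-stimulated genes fell. Of 25, 18 fell and 0 rose, with a median log2 fold change of -0.90. Oas3 and Oas2 encode sensors of double-stranded RNA. Oas3 was at 109, 78.6, 71.8 and 65.9 CPM with AL and 26.6, 9.84, 11.9 and 27.1 CPM under CR (log2 fold change -2.11, SE 0.34, padj = 0.00211), and Oas2 at 50.6, 16.7, 22.1 and 26.2 CPM with AL and 7.63, 4.01, 8.36 and 4.70 CPM under CR (log2 fold change -2.22, SE 0.38, padj = 0.00300). Isg15, a ubiquitin-like modifier, was at 29.6, 35.5, 15.1 and 22.1 CPM with AL and 9.002, 2.96, 1.78 and 3.799 CPM under CR (log2 fold change -2.54, SE 0.46, padj = 0.00377). In each of them all CR libraries were under all AL libraries. Irf7, the transcription factor that amplifies the response (-1.42, SE 0.27, padj = 0.00478), Oas1a (-1.84, SE 0.28, padj = 0.00173), Rsad2 (-1.499, SE 0.44, padj = 0.0257), Ifit1 (-1.05, SE 0.21, padj = 0.00514), Mx1 (-0.72, SE 0.17, padj = 0.0111) and Bst2 (-0.71, SE 0.17, padj = 0.0122) fell too. AL1 was the highest AL library for Irf7, Oas1a, Oas2 and Oas3. In CR1 and CR4 alone the median was -0.98 and 5 of the 25 fell. Of 18 genes of antigen presentation 2 fell, a count near the share of 10.9% over all genes tested. They were the immunoproteasome genes Psmb8 (-0.54, SE 0.14, padj = 0.0180) and Psmb9 (-0.51, SE 0.15, padj = 0.0289), which interferon also induces. Both were chosen after their values were seen, and 0 of the 18 passed in CR1 and CR4 alone. With 1 library left out, the threshold was missed by Rsad2 without AL2, CR2 or CR3, and Psmb9 without AL1, AL3, AL4, CR2 or CR3 (padj between 0.0524 and 0.0695).

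The letters GAAA and again GAAA, 2 bases apart, are the core of the element that interferon-activated factors bind. They stood in 12 of the 18 listed genes with a promoter in the table and in 3.99% of all genes. Of the 12, 8 were genes that fell, beside 18 of the 25 genes of the whole list, so the motif did not set apart the genes that fell. Windows of 30 bases from genes that fell are shown with each match in capitals. Matches of Isg15 and Oas1a overlap each other, and those of Ifit1 and Rsad2 lie on the other strand.
Isg15, chr4:156200871-156200900, reverse strand: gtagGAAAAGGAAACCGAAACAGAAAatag
Oas1a, chr5:120907523-120907552, reverse strand: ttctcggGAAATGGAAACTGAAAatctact
Oas3, chr5:120777715-120777744, reverse strand: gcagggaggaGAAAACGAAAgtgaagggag
Ifit1, chr19:34640775-34640804, forward strand: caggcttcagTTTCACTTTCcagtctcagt
Rsad2, chr12:26456553-26456582, reverse strand: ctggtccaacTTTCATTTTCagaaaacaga

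The housekeeping groups of nuclear genes had small median shifts, but a larger share of each fell than the 10.9% of all genes tested. Of 88 genes of cytosolic ribosomal proteins 25 fell and 2 rose (median -0.23). Those that fell furthest were Rpl3l, a form known from muscle (-2.33, padj = 0.00543), Rpl13a (-0.96, padj = 0.00210) and Rpl31 (-0.66, padj = 0.0126), while Rpl39l (1.33, padj = 0.0117) and Rps4l (0.80, padj = 0.0295) rose. Ribosomal protein genes have many processed copies that share reads. Of 81 nuclear genes of oxidative phosphorylation 17 fell and 1 rose (median -0.17), with Cox6a2, a form of cytochrome oxidase known from muscle, at 6.04, 8.55, 6.80 and 6.87 CPM with AL and 3.46, 3.05, 2.09 and 3.01 CPM under CR (log2 fold change -1.28, SE 0.19, padj = 0.00146). Atp5k (-0.72, padj = 0.0100) and Atp5o (-0.59, padj = 0.0163) of ATP synthase fell, and Ndufa4l2 rose (0.89, padj = 0.0325). The number of ribosomal genes that fell was 8 without CR3, 10 without CR2, 13 without AL2, 15 without AL3 and 16 without AL4, each left out singly. The number of oxidative phosphorylation genes that fell was 9 without CR3 and 27 without CR1, each left out singly. The genes of the mitochondrial genome went the other way, with 4 of 11 higher and none lower (median 0.46). These were mt-Nd1 (0.61, SE 0.19, padj = 0.0294), mt-Cytb (0.58, SE 0.19, padj = 0.0388), and mt-Nd5 (0.67, SE 0.18, padj = 0.0171) and mt-Nd6 (0.63, SE 0.16, padj = 0.0166), which overlap on opposite strands. With counts of its own strand mt-Nd6 had a log2 fold change of 0.22 (padj = 0.746). The number of mitochondrial genes that rose was 0 without AL3, 1 without CR3 and 2 without AL1 or CR2, each left out singly. Without CR2 and CR3, 2 ribosomal genes fell, Rpl13a and Rpl23a, the latter chosen after its call was seen. Of the genes of oxidative phosphorylation only Cox6a2 fell there, and 0 mitochondrial genes passed. Leaving out 1 library ended the calls of Rps4l and Ndufa4l2 without AL3, AL4, CR2 or CR3, Atp5o without CR3, mt-Nd1 without AL1, AL3, CR2 or CR3, mt-Cytb without AL1, AL2, AL3, CR2 or CR3, mt-Nd5 without AL3 or CR3, and mt-Nd6 without AL3 (padj between 0.0507 and 0.116). The log2 fold change of Rps4l was 0.52 without CR2.

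Of 19 genes of glycolysis and lactate 7 fell and 0 rose (median -0.33), among them Ldha, lactate dehydrogenase (-0.39, SE 0.12, padj = 0.0270), the lactate exporter Slc16a3 (-0.67, SE 0.17, padj = 0.0132) and the glucose transporter Slc2a3 (-0.59, SE 0.16, padj = 0.0196). The number of glycolysis genes that fell was 2 without CR3, 3 without AL2 or CR2, 4 without AL1 and 11 without CR1, each left out singly. Of 20 genes of cholesterol synthesis and uptake 6 fell and 2 rose (median -0.14). Fdps, which makes farnesyl diphosphate, was at 1.74, 2.32, 2.11 and 2.28 CPM with AL and 0.995, 0.729, 1.56 and 0.950 CPM under CR and fell (log2 fold change -0.99, SE 0.27, padj = 0.0188), while Lss (0.81, SE 0.17, padj = 0.00699) and Fdft1 (0.33, SE 0.10, padj = 0.0237) rose. Of 12 immediate early and heat shock genes, which handling of tissue can move, Fos rose (0.68, padj = 0.0152) and 4 fell, which were Ier2 (-0.48, padj = 0.0142), Junb (-0.49, padj = 0.0363), Hspa8 (-0.36, padj = 0.0460) and Hsph1 (-0.57, padj = 0.0440). Of 19 chemokine genes Cxcl13 and Cx3cl1 (0.65, SE 0.23, padj = 0.0494) rose and none fell. Of 19 complement genes 3 rose, Masp1 and Cfd among them, and C3 fell (-0.44, SE 0.12, padj = 0.0208). Over all genes tested 15.1% rose and 10.9% fell, so the chemokine and complement counts were near or under the share of all genes. The genes of these last 3 lists were named after their values were seen. Of the lists in this paragraph, only Cxcl13 and Masp1 passed in CR1 and CR4 alone. No longer past the threshold with 1 library left out were Ldha without AL1, AL2, CR2 or CR3, Slc2a3 without AL2, CR2 or CR3, Fdps without CR2, Fdft1 without AL1, AL3, CR1 or CR2, Junb without AL1, AL2, AL3, CR3 or CR4, Hspa8 and Hsph1 without AL1, AL2, AL3, AL4, CR1, CR2 or CR3, Cx3cl1 without AL1, AL3, AL4, CR1, CR2 or CR3, and C3 without AL1, CR2 or CR3 (padj between 0.05005 and 0.168).

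The response was set beside that of BMAd-Pnpla2-/- marrow, 3 CR against 3 AL libraries that share none of the 8 used above. Those CR libraries held 50.1 to 50.5% of their gene reads on the first strand. The 8 BMAd-Pnpla2+/+ libraries held 4.30 to 4.61% and the 3 BMAd-Pnpla2-/- AL libraries 4.44 to 4.62%. The unstranded counts were therefore compared. In BMAd-Pnpla2-/- marrow the diet changed together with the strand balance of the libraries. The diet and any difference in preparation thus cannot be told apart there, and unstranded counts need not remove the latter. Of the 1639 genes past the criteria, 1575 (96.1%) had the same sign in BMAd-Pnpla2-/- marrow, against 71.39% of all genes tested. The median log2 fold change of the 1296 higher genes was 1.41 in BMAd-Pnpla2+/+ and 0.967 in BMAd-Pnpla2-/- marrow, and that of the 343 lower genes -1.34 and -0.893. The genes were chosen by their size in BMAd-Pnpla2+/+ marrow, which makes their median there the larger. No gene had a difference of the responses past padj of 0.05 by edgeR (0% of 17671), while 1836 had an unadjusted p under 0.05, and DESeq2 called 65 and limma-voom 0. Side by side, the list medians in BMAd-Pnpla2+/+ and BMAd-Pnpla2-/- marrow were -3.44 and -3.41 for pro-B and pre-B cell genes, 1.93 and 2.19 for adipocyte genes, 1.38 and 1.38 for glucocorticoid targets and -0.90 and -0.95 for interferon-stimulated genes. They were -0.80 and -0.31 for cell cycle genes and 0.57 and -0.035 for T and NK cell genes. Of single genes, the log2 fold changes in the same order were 1.54 and 1.37 for Fkbp5, 4.62 and 5.09 for Kcnc2, 1.94 and 0.60 for Pnpla2, the gene deleted there in BMAds, 1.42 and 0.49 for Tcf7 and -0.88 and 0.08 for Ccr2. The padj of the difference was 0.341 for Pnpla2, 0.341 for Tcf7 and 0.341 for Ccr2, so a difference was not shown for these.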

How the data were processed

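Libraries of 2 pooled mice were sequenced in pairs by the authors, and the labels and methods name FastQC 0.11.9 for quality, STAR with its default parameters for alignment to mm10 and DESeq2 for their comparison. The version of STAR is not given in the sources used here. The deposited count files of each library hold reads per gene for 55401 genes without regard to strand and for each strand, next to a deposited count matrix of the reverse strand for 23441 genes. The unstranded counts were used, since reads of the BMAd-Pnpla2-/- CR libraries fell on both strands alike. Of 99 called genes named in the text that overlap a gene on the opposite strand, 99 had the same sign with counts of their own strand and 92 passed the threshold, the others being Ppargc1a, Acp5, Bmp4, Mpo, Psmb8, Ndufa4l2 and mt-Nd6.

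Genes were filtered by filterByExpr, libraries scaled by TMM, and CR tested against AL with the robust quasi-likelihood test of edgeR 4.0.16 (R 4.3.3) in a model of 4 groups over 14 libraries, with Benjamini-Hochberg adjustment over 17671 genes. DESeq2 1.42.0 and limma-voom (limma 3.58.1) were alternatives. On simulated counts for this comparison, with 200 of 17671 genes changed, edgeR found 198 with 1 false call, DESeq2 198 with 12 and limma-voom 196 with 0. The changed genes were read at over 50 counts and shared a single large size of change, and each gene was drawn independently. No shift of cell content common to many genes, such as that of CR2 and CR3, was simulated. The rate of false calls in the real libraries therefore cannot be read from it. P-values measure the spread between pools. The total of 19082056 to 21665553 counts a library limits precision for genes of few counts. The first component was computed on counts after the variance-stabilizing transformation of DESeq2. Log2 CPM, used for the correlations of libraries and the SD of lists, had a prior count of 2. A floor of 3 counts in a library was taken as not detected.

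The comparison and its gene lists were chosen with earlier results of these data known. Named were Pnpla2, the key genes of each list, up to 3 further members with the largest changes past the threshold, and 10 genes at either end of the fold changes that met the criteria, had a symbol, were read at 50 counts or more in the mean and did not overlap between the groups. Where 5 or fewer genes of a list moved they were named too. Symbols came from the deposited matrix or GENCODE M21, positions from the latter on mm10, and 232 genes had no symbol. Some genes that the rule names are not reported here.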

Additional observations from a re-analysis of the deposited data

Results flagged for a closer look

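In 36 of 614 tests of the most extreme library of a group of 4, its gap to the next exceeded the critical value of Dixon's test. Chance gives about 1 in 20, and genes of a list are not independent. AL1 was the highest AL library for Retn, at 8.11 CPM against 3.41 to 3.86 CPM in the other 3, Car3 (954 against 292 to 327 CPM), Cfd (894 against 289 to 336 CPM) and Aqp7 (5.84 against 2.84 to 3.19 CPM). It was also the highest for Plin4 (234 against 82.2 to 88.2 CPM), Acaca (96.4 against 47.3 to 48.3 CPM), Scd1 (4642 against 1497 to 1594 CPM) and Hadh (45.4 against 31.8 to 32.3 CPM). It was also the highest for Col4a1 (273 against 154 to 158 CPM), Prelp (45.5 against 31.3 to 32.7 CPM), Fzd4 (66.7 against 41.2 to 44.1 CPM) and Cd247 (6.37 against 3.71 to 3.96 CPM). It was also the highest for Irf7 (168 against 68.3 to 76.3 CPM), Hspa8 (1023 against 800.3 to 807 CPM), the adipocyte list (3873 against 1722 to 1968 CPM) and the lipogenesis and triglyceride synthesis list (6531 against 2701 to 2847 CPM). It was also the highest for the complement list (4699 against 3181 to 3339 CPM) and the collagen processing and crosslinking list (1126 against 851 to 892 CPM). AL1 was the lowest AL library for Prdm1, at 10.5 CPM against 11.2 to 11.3 CPM in the other 3. AL2 was the highest AL library for Slc2a4, at 42.5 CPM against 36.1 to 36.7 CPM in the other 3, Hlf (14.6 against 12.8 to 13.02 CPM), Atp5o (17.4 against 12.9 to 13.4 CPM) and the osteoclast list (1628 against 991 to 1078 CPM). It was also the highest for the skeletal muscle list (38.5 against 11.3 to 13.3 CPM). AL2 was the lowest AL library for Apol11a, at 9.34 CPM against 13.95 to 15.1 CPM in the other 3, Cxcl12 (3788 against 4689 to 4779.9 CPM), Gdf6 (0.633 against 1.16 to 1.28 CPM) and the chemokines list (4611 against 5758 to 5868 CPM). AL3 was the highest AL library for Ppara, at 0.463 CPM against 0.264 to 0.290 CPM in the other 3. AL4 was the lowest AL library for the glycolysis and lactate list, at 5827 CPM against 6598 to 6671 CPM in the other 3. CR3 was the lowest CR library for Rpl31, at 132 CPM against 203 to 209.6 CPM in the other 3. CR4 was the lowest CR library for Cidea, at 0.791 CPM against 2.13 to 2.51 CPM in the other 3, Dgat2 (83.5 against 136 to 145 CPM), Plod2 (7.81 against 11.1 to 11.5 CPM) and Ms4a6c (40.4 against 48.0 to 48.1 CPM). It was also the lowest for the stem and progenitor cell list (489 against 593 to 616 CPM). Values of lists are sums over their genes.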

How the results depend on the processing

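Each result was recomputed under 20 alternatives, 2 of them chosen after seeing the data, namely without CR2 and CR3 and without AL1 and CR4. Against 4602 changed genes with 1296 and 343 past the criteria upward and downward, a fit of the 8 BMAd-Pnpla2+/+ libraries alone gave 2742, 1040 and 222, in the same order, and a minimum of 50 counts in the mean gave 3963, 865 and 149, out of fewer genes tested. DESeq2 gave 5603, 1375 and 398, limma-voom 3838, 1091 and 268, reverse-strand counts 4092, 1192 and 348 and no filter on low counts 3923, 1147 and 375. With 1 library left out the counts ran from 2228 (without CR3) to 6029 (without CR4), from 811 (without CR2) to 1663 (without CR4) and from 209 (without CR3) to 611 (without CR4). Without CR2 and CR3 they were 438, 192 and 82, and without AL1 and CR4 6000, 1800 and 765. The cause of these changes was not tested beyond the loss of libraries. The share of genes past the criteria that were higher ran from 70.1% (without CR2 and CR3) to 85.3% (mean of at least 50 counts).

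Of 1018 list medians under the alternatives, 978 moved by less than 1 SD between libraries and 40 moved further. Without CR2 and CR3 the medians that moved were 1.35 for adipocyte, 0.32 for marrow stromal (CAR) cell, 0.64 for osteoclast, 0.40 for endothelial cell, 0.13 for chondrocyte, -0.33 for eosinophil, basophil and mast cell, 0.64 for lipolysis and lipid droplet, 0.83 for lipogenesis and triglyceride synthesis and 0.26 for fatty acid oxidation and ketone bodies. The others there were 1.09 for glucocorticoid response, 0.56 for circadian clock, 0.48 for insulin and IGF axis, 0.62 for small leucine-rich proteoglycans, 0.24 for collagen processing and crosslinking, 0.68 for Wnt pathway, 0.38 for BMP and TGF-beta pathway, 0.60 for FGF pathway, 0.29 for Adamts, Mmp and Timp families and -0.26 for immunoglobulin constant and variable segments. With a mean of at least 50 counts they were 1.21 for osteoblast and osteocyte, -2.64 for pro-B and pre-B cell, 0.87 for lipolysis and lipid droplet, 0.24 for fatty acid oxidation and ketone bodies and -0.34 for immediate early and heat shock, and without AL1 and CR4 -0.20 for monocyte. With 1 library left out the medians of lists that moved ran from 0.72 to 1.85 for osteoclast, -0.84 to 0.79 for skeletal muscle, 0.001 to 0.27 for stem and progenitor cell, -0.46 to -0.20 for monocyte, -0.60 to -0.091 for dendritic cell and 0.79 to 1.497 for lipolysis and lipid droplet. For the remaining such lists the ranges were 1.16 to 1.52 for fatty acid and glucose uptake, 0.28 to 0.48 for fatty acid oxidation and ketone bodies, -0.23 to -0.047 for cholesterol synthesis and uptake, 0.10 to 0.22 for nutrient stress and autophagy, -0.21 to -0.024 for immediate early and heat shock, 0.35 to 0.72 for Adamts, Mmp and Timp families and -0.26 to -0.15 for nuclear oxidative phosphorylation.

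Of 5092 values of single genes, 4497 kept their direction and side of the threshold, 569 lost the call, 22 gained one and 4 changed sign. The last were Adrb3 (-0.36) and Ibsp (-0.10) without CR2 and CR3, and Ms4a1 without AL2 (-0.16) and without AL3 (-0.014), all 3 genes not called with all libraries. Of 246 called genes named above, 71 were past the threshold in all alternatives. Among genes whose responses differed between the genotypes, DESeq2 called 65 and limma-voom 0 against 0 by edgeR.

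With the replicate number of the titles as a block, 4253 changed genes with 1126 and 340 past the criteria upward and downward were found. The deviations of same-numbered AL and CR libraries from their group means had correlations of -0.197, -0.0994, 0.106 and 0.0702, so the numbers were not taken to pair the pools, and the block stands here only as an alternative. Not every library correlated best with its own number. The block moved these 3 counts by less than 1.5 times. Among counts of list members, the cell cycle genes that fell went from 20 to 29. Hox genes that rose went from 14 to 11 and ribosomal genes that fell from 25 to 22. Other counts moved by fewer genes. Among these, genes that fell went from 1 to 2 for nutrient stress and autophagy and for the Adamts, Mmp and Timp families. Those that rose went from 1 to 2 for immediate early and heat shock genes.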
